A study of Mus musculus with 3 samples.

Results

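The genes described here are 10 genes of the MHC class I antigen presentation pathway, found by symbol among the 32285 genes listed for each library. They are the heavy chains H2-K1, H2-D1 and H2-M2, the light chain B2m, the peptide transporter genes Tap1 and Tap2, the peptide-loading gene Tapbp, the immunoproteasome genes Psmb8 and Psmb9, and the regulator Nlrc5. All 10 symbols were found once, and all 10 had UMIs (unique molecular identifiers, each counting an RNA molecule) in every library. Class I molecules show peptides from inside the cell to CD8 T cells and are watched by NK cells. Proteasomes cut the peptides, the transporter made of Tap1 and Tap2 carries them into the endoplasmic reticulum, and tapasin, the product of Tapbp, helps to fit them onto a heavy chain that is bound to B2m. Interferon exchanges standard proteasome subunits for Psmb8, Psmb9 and Psmb10, and Nlrc5 is a transcriptional coactivator of class I genes.

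Lungs of 3 groups of mice were sampled, with the cells of 3 mice pooled into 1 library per group. PPARg-/- tumour mice carried Ccsp-rtTA, TetO-EGFRL858R, floxed Pparg alleles (Pparγ fl/fl) and Csf1rCre. WT tumour mice carried Ccsp-rtTA, TetO-EGFRL858R and the floxed Pparg alleles without Cre, and WT healthy mice carried Ccsp-rtTA and TetO-EGFRL858R without the floxed alleles. All were 16 to 20 weeks old, and the labels give doxycycline chow at 625 ppm for all 3 groups, the healthy one included. Ccsp-rtTA places the doxycycline-dependent activator in club cells of the airway and related epithelium, EGFRL858R is a mutant of the EGF receptor found in lung cancer, and Csf1rCre drives recombination of floxed alleles in monocytes, macrophages and their relatives. Flow cytometry separated 4 populations (SiglecF+ alveolar macrophages, other CD11b+ myeloid cells without Ly6G, CD3+ T cells and EPCAM+ epithelium), which were pooled evenly and sequenced from the 3' end of each RNA. Monocytes, dendritic cells, B cells and endothelial cells were found as well.

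After filters and doublet removal, 4995 PPARg-/- tumour, 4268 WT tumour and 2894 WT healthy cells remained. Before doublet removal, 11, 10 and 9 of the barcodes in these libraries had a column position that was also kept in another library. Barcode sequences were not compared. Pparg, the targeted gene, was read at 235.7 CPM (UMIs per 1000000 UMIs) in PPARg-/- tumour, 94.5 CPM in WT tumour and 126.3 CPM in WT healthy cells, and at 376, 172 and 196 CPM in their main macrophages, so it was highest in the library labelled PPARg-/-. A 3' tag can lie outside the deleted part, and the floxed exons are not named, so these UMIs do not check the deletion. Xist, expressed from the inactive X chromosome of females, was read at 0.305, 0.177 and 1233 CPM in PPARg-/- tumour, WT tumour and WT healthy, and the Y-linked Ddx3y at 74.5, 81.7 and 0.131 CPM, although the labels describe both sexes in about equal numbers. Both tumour libraries thus read as male and the healthy library as female, and tumour, sex and the floxed alleles cannot be told apart in WT tumour over WT healthy. Each group has 1 library, which leaves no test between them, and every interval covers counting error only.

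Cells fell into 31 clusters, drawn without the 10 genes and without the other class I pathway genes. Each cell type name below stands for a cluster that resembles it by its markers (alveolar macrophage-like, T cell-like and so on). The main macrophages are the largest macrophage cluster of each library that showed at least 5 of 10 alveolar markers, and they differ between libraries. In PPARg-/- tumour this was cluster 1, with 1159 cells, 5 of 10 alveolar and 7 of 12 interstitial or monocyte-derived markers raised, so that by its markers it resembles interstitial more than alveolar macrophages. In WT tumour it was cluster 4, with 941 cells, 9 of 10 alveolar and 1 of 12 interstitial markers, and in WT healthy it was cluster 5, with 842 cells, 10 of 10 alveolar and 1 of 12 interstitial markers. The part of this difference in makeup in any value of the main macrophages was not tested. Pparg, the targeted gene, is 1 of the 10 alveolar markers and was read in 94.8% of the PPARg-/- tumour cells of cluster 1. This cluster stands at the limit of 5 markers, and whether it would reach 5 without Pparg was not tested either. Nonclassical monocytes join clusters 2 and 8, whose shares differ between libraries. Cluster 2 held 836 cells of PPARg-/- tumour, 250 of WT tumour and 23 of WT healthy, and cluster 8 held 190, 243 and 216. Igha and Jchain, a plasma cell marker, are among the leading genes of B cells and also of type 2 dendritic cells. The part of such makeup in the values of these classes was not tested. In summed counts, fewer expressing cells and less RNA per cell cannot be told apart.

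In GENCODE annotation of GRCm38 (mm10), 8 of the 10 genes lie on chromosome 17, in and near the MHC. Psmb9 (chr17:34181987-34187764, minus strand), Tap1 (chr17:34187553-34197225), Psmb8 (chr17:34197721-34201454) and Tap2 (chr17:34203527-34216321, the last 3 on the plus strand) stand side by side within 34.3 kb. Tapbp lies at chr17:33915899-33929292 (plus), H2-K1 at chr17:33996017-34000347 (minus), H2-D1 at chr17:35262730-35267499 (plus) and H2-M2 at chr17:37480851-37483552 (minus). B2m lies at chr2:122147686-122153083 (plus) and Nlrc5 at chr8:94434356-94527272 (plus). The starts of Tap1 and Psmb9 overlap on opposite strands, away from the 3' ends that were read. Of the 50-base words in the last 400 bases of the transcripts, 0.57% for H2-K1 and 6.55% for H2-D1 also occurred in another gene's transcript, for H2-K1 only in H2-D1, and for H2-D1 in H2-K1 and H2-Q2. The share was 4.56% for H2-M2 and 0 for the other 7 genes.

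Promoter sequences from RefSeq (GRCm38.p6) were in hand for 8 of the 10 genes, all but Tap2 and Nlrc5. RefSeq and GENCODE starts can differ, and the H2-D1 window below lies within the GENCODE span given above. Among the heavy chains, H2-M2 and H2-D1 carry the main differences, and H2-K1 is set beside H2-D1. The 250 bases before the RefSeq start are shown for the heavy chains, their light chain B2m, and Tap1 of the peptide transporter. Each runs 5′ to 3′ on the gene's own strand, and capitals mark matches, on either strand, to GGGA, any 3 bases and CCC (the core of an NF-kB type site), GAANNGAAA (an interferon response element type), TGACG (the core of a CRE type site), ATTGG (an inverted CCAAT box) and TATAA.
H2-K1 (chr17:34000348-34000597, minus): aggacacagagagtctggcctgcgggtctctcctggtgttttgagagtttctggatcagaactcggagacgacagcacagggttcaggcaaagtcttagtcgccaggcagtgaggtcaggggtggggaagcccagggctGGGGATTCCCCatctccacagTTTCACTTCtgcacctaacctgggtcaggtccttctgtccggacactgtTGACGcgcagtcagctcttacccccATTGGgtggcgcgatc
H2-D1 (chr17:35262844-35263093, plus): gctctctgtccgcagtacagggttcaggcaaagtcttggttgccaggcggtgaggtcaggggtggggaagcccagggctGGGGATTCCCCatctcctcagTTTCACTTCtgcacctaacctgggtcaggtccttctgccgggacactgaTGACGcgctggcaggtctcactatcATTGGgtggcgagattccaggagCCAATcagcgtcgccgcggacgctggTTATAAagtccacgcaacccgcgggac
H2-M2 (chr17:37483555-37483804, minus): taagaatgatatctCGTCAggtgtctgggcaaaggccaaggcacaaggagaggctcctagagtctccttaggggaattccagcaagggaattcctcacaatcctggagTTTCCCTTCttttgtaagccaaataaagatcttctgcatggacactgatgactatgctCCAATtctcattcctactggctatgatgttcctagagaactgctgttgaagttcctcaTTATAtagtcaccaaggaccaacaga
B2m (chr2:122147437-122147686, plus): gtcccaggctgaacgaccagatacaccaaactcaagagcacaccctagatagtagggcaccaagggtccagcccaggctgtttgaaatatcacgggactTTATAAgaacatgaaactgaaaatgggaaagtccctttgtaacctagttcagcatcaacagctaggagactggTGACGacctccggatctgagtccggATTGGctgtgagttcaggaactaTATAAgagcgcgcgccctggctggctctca
Tap1 (chr17:34187306-34187555, plus): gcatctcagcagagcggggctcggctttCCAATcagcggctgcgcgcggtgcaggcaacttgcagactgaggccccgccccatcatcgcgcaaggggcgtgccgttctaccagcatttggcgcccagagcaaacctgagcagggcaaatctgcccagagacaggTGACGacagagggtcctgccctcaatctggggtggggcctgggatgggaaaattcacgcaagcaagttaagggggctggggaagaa
H2-K1 and H2-D1 shared an identical run of 47 bases, whereas the longest run that H2-M2 shared was 8 bases with H2-K1 and 13 bases with H2-D1. The run of 47 began 141 bases before the H2-K1 start and 201 bases before the H2-D1 start, so these windows are offset. The H2-K1 window does not reach the bases that correspond to the end of the H2-D1 window, where its TATAA match lies. The NF-kB type letters stood in H2-K1 and H2-D1 and in 4.77% of 32851 windows of this length, with both strands searched. The interferon type letters stood in H2-K1, H2-D1 and H2-M2, against 6.31% of windows. TGACG stood in 6 of the 8 windows against 17.8%, ATTGG in 7 of 8 against 33.8%, and TATAA in 4 of 8 against 22.8%. The Tap1 window overlaps that of Psmb9 by 225 bases, since these genes start back to back. Their TGACG matches are the same bases read on opposite strands, as are their ATTGG matches, so each of these sites is counted for both genes. A match describes letters and says nothing of binding.

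Summed over the 10 genes, class I RNA took 0.841% of UMIs in PPARg-/- tumour, 0.663% in WT tumour and 0.692% in WT healthy barcodes past the filters. Levels below are CPM over the cells of a class, and classes with at least 50 cells in a library were read. Levels of different genes are not ranked against each other. Ratios of UMIs between a pair of genes are compared across classes and libraries for that pair only.

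**Figure D1:**
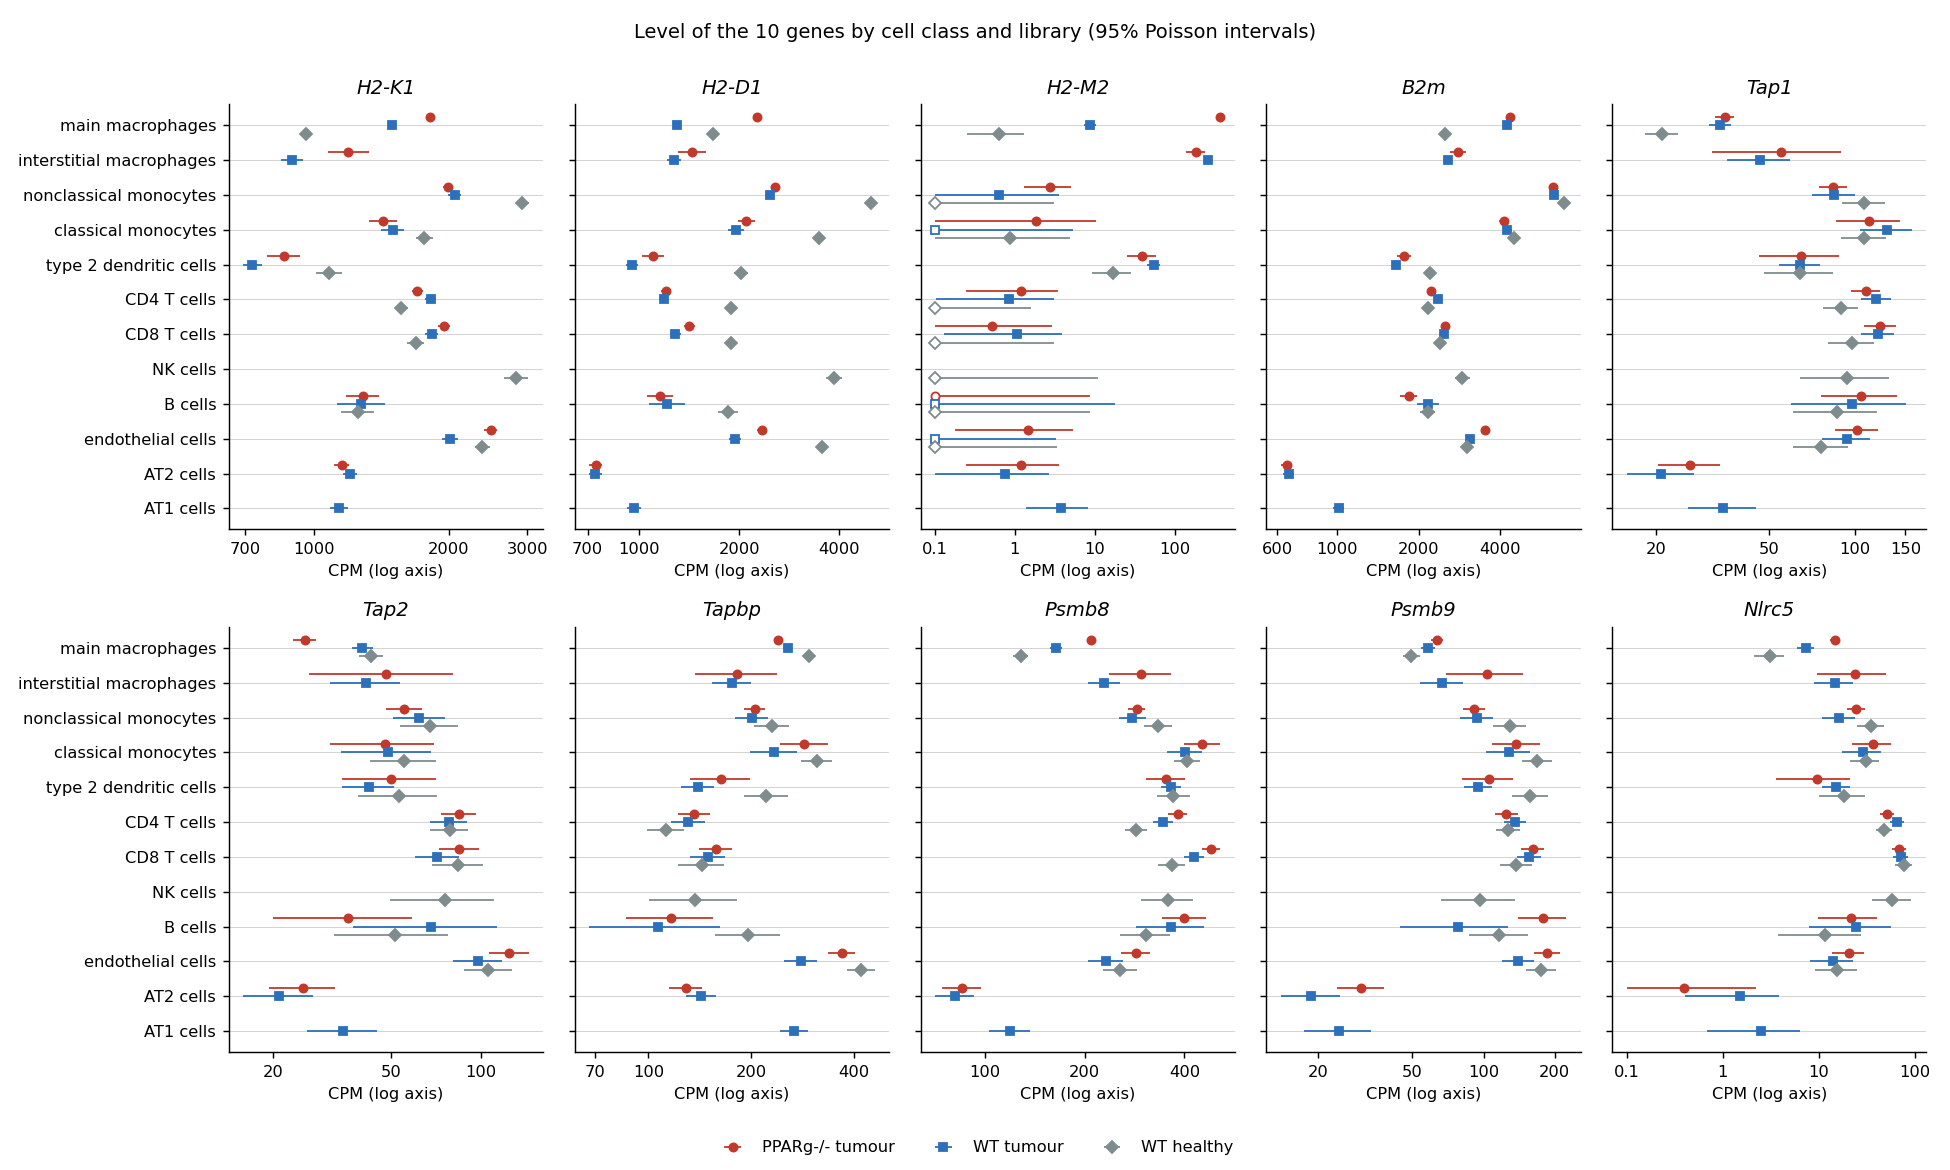
Level of each gene in CPM (log axes) in 12 cell classes, with points for PPARg-/- tumour, WT tumour and WT healthy and bars for 95% Poisson intervals; open points at the left edge mark 0 UMIs. B2m was highest in nonclassical monocytes and lowest in AT2 cells, and H2-M2 stood out in macrophages and type 2 dendritic cells.

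B2m, the light chain of every class I molecule, had its highest level in nonclassical monocytes, the patrolling monocytes of the vessel wall, at 6283, 6373 and 6905 CPM in PPARg-/- tumour, WT tumour and WT healthy. It was lowest in AT2 cells, the surfactant-making epithelium from which many lung tumours grow, at 649 CPM in PPARg-/- tumour and 660.1 CPM in WT tumour. Free RNA, read from near-empty barcodes, held B2m at 3924 and 3314 CPM in these libraries, and 10% of that would reach 60.5% and 50.2% of the AT2 levels, whose free-RNA part was not tested. H2-K1, a classical heavy chain, was highest in endothelial cells of PPARg-/- tumour (2482 CPM) and in nonclassical monocytes of WT tumour and WT healthy (2063 and 2921 CPM). It was lowest in type 2 dendritic cells of both tumour libraries (854 and 727 CPM) and in main macrophages of WT healthy (959 CPM). H2-D1, the other classical heavy chain, was highest in nonclassical monocytes in all 3 libraries (2562, 2475 and 4983 CPM) and lowest in AT2 cells in both tumour libraries (740.3 and 739.4 CPM).

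The peptide supply genes followed another order. Psmb8 was highest in CD8 T cells of both tumour libraries (481 and 428 CPM in PPARg-/- and WT tumour) and in classical monocytes of WT healthy (407 CPM), and lowest in AT2 cells (85.5 and 81.2 CPM in PPARg-/- and WT tumour). CD8 T cells and classical monocytes (453 and 401 CPM in PPARg-/- and WT tumour) are not set apart beyond counting error. Tap1 was likewise low in AT2 cells (26.4 CPM in PPARg-/- and 20.95 CPM in WT tumour). It was high in CD8 T cells (122.5 and 120.3 CPM in PPARg-/- and WT tumour) and classical monocytes (112 and 129 CPM). Tap2 was highest in endothelial cells, at 125.0, 97.96 and 106.1 CPM in PPARg-/- tumour, WT tumour and WT healthy. Nlrc5 was highest in CD8 T cells at 68.5, 71.0 and 76.5 CPM in the same order, and 1 and 4 UMIs were read over all AT2 cells of PPARg-/- and WT tumour, below the free-RNA level of 19.4 and 13.6 CPM. Tapbp was highest in endothelial cells in all 3 libraries (368, 280 and 419 CPM).

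Over 30 points (12 classes, each in 1 to 3 libraries), log levels of Tap1, Psmb8, Psmb9 and Nlrc5 were correlated across cell types. Pearson's r was 0.890 for Tap1 with Psmb8, 0.871 for Psmb8 with Psmb9, 0.858 for Tap1 with Psmb9, 0.820 for Tap1 with Nlrc5, 0.806 for Psmb8 with Nlrc5 and 0.710 for Psmb9 with Nlrc5. Other pairs at that level were H2-D1 with B2m (0.785), Tap2 with Psmb9 (0.730), Tap1 with Tap2 (0.716) and H2-K1 with H2-D1 (0.711), and between H2-M2 and the other 9 genes it ran from -0.415 to 0.032. Points of a library share its depth and free RNA, so these are descriptions. The genes closest to Tap1 by this measure were Sp100 (r = 0.935), a component of nuclear bodies, and Klf2, a transcription factor of resting lymphocytes and endothelium (r = 0.916), with Lbh (r = 0.924) and Gm4070 (r = 0.919) between them. Closest to Psmb8 were Sp110 (0.909) and Mndal (0.906), then Sp100 (0.891) and Gm4070 (0.884). Irf1, an interferon-induced transcription factor, was closest to H2-K1 (0.781), ahead of Cdk17 (0.744) and Tpst2 (0.724). Tmem71 (0.919), Pdcd4 (0.891), Vps37b (0.876) and Ifi206 (0.867) were closest to Nlrc5.

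A small T cell cluster had the highest Nlrc5 and Tap1 levels of the groups of cells named here. Cluster 22, with 58 cells of the 3 libraries together, had Nlrc5 at 207.1 CPM, Psmb8 at 698 CPM, Tap1 at 174 CPM and Psmb9 at 196 CPM. Its interferon-stimulated genes were read at 605 CPM for Ifit1, 594 CPM for Ifit3 and 632 CPM for Isg15. These cells are counted among the CD8 T cells. Migratory dendritic cells, which carry antigen to lymph nodes, had Psmb8 at 791 CPM and Psmb9 at 221 CPM over the 52 cells of cluster 24, with Ifit1 and Ifit3 at 1 UMI each.

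Main macrophages gave the largest difference between PPARg-/- tumour and WT tumour, and it lay mainly in H2-M2. H2-M2 was 41.3-fold higher, H2-D1 1.74-fold higher and Nlrc5 2.03-fold higher, while Tap2 was lower at 0.640 of the WT tumour level and B2m was nearly level. A gene is called where CPM differ by 1.5-fold and the interval leaves out 1, if both libraries together hold 20 UMIs. By this rule 3 of the 10 genes were higher and 1 was lower, where 15.1% of 12081 genes were called higher, 18.2% lower and 33.2% in either direction, so the count of 4 is near the background. The median log2 ratio of the 10 genes was 0.21, against -0.14 over all genes read.

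**Figure D2:**
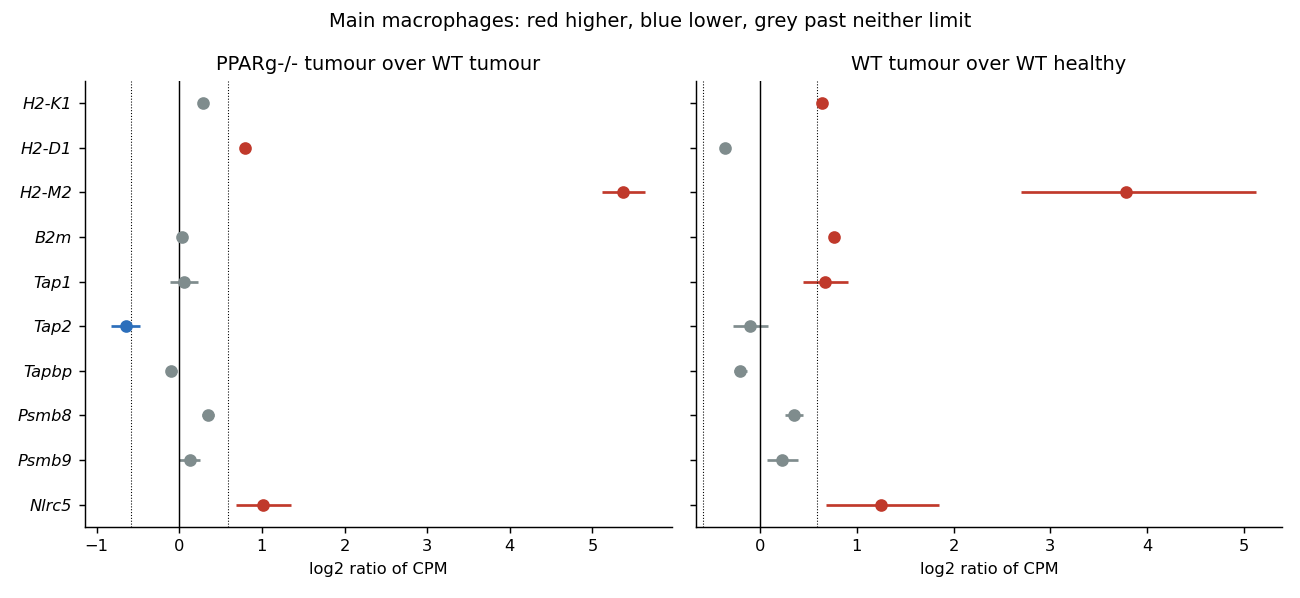
Log2 ratio of CPM in main macrophages for each gene, PPARg-/- tumour over WT tumour on the left and WT tumour over WT healthy on the right, with 95% counting intervals and dotted lines at 1.5-fold (red, called higher; blue, called lower; grey, not called). H2-M2 lies far to the right in both panels, and H2-D1 lies right of 0 in the left panel and left of 0 in the right panel.

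H2-D1 was read at 2266 CPM in PPARg-/- tumour, 1302 CPM in WT tumour and 1672 CPM in WT healthy main macrophages, a log2 ratio of 0.80 (0.77 to 0.82) for PPARg-/- over WT tumour. H2-K1 was read at 1816, 1490.0 and 959 CPM in the same order, a log2 ratio of 0.29 (0.26 to 0.31), short of 1.5-fold. The heavy chains therefore order the libraries differently: H2-D1 was lowest in WT tumour and H2-K1 in WT healthy. B2m stood at 4357 CPM in PPARg-/- tumour and 4263 CPM in WT tumour, a log2 ratio of 0.03 (0.02 to 0.05).

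Among the genes for peptide supply, Tap2 was read at 25.6 CPM in PPARg-/- tumour and 39.95 CPM in WT tumour main macrophages, a log2 ratio of -0.64 (-0.82 to -0.47). Its partner Tap1 was read at 34.9 and 33.6 CPM (0.05, -0.12 to 0.22), so the ratio of Tap1 to Tap2 UMIs was 1.36 (1.21 to 1.53) in PPARg-/- tumour and 0.841 (0.744 to 0.950) in WT tumour. The immunoproteasome genes were a little higher in PPARg-/- tumour without reaching 1.5-fold: Psmb8 at 209.0 against 164 CPM (0.35, 0.28 to 0.42) and Psmb9 at 63.6 against 58.1 CPM (0.13, 0.0018 to 0.26). Tapbp stood at 240 against 256 CPM (-0.09, -0.16 to -0.03). Nlrc5 stood at 14.8 CPM in PPARg-/- tumour and 7.33 CPM in WT tumour, a log2 ratio of 1.02 (0.69 to 1.35). The call of Tap2 as lower did not hold at a mitochondrial limit of 5% (-0.58), with ratios centred on the median gene (-0.51) or over all macrophage clusters (-0.54).

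H2-M2, a nonclassical heavy chain encoded in the M region at the far end of the MHC, was read mostly in macrophages and dendritic cells. Main macrophages held 7085 UMIs in PPARg-/- tumour, 126 in WT tumour and 7 in WT healthy, which is 360.0, 8.71 and 0.635 CPM. The log2 ratio was 5.37 (5.12 to 5.64) for PPARg-/- tumour over WT tumour and 3.78 (2.69 to 5.12) for WT tumour over WT healthy. At the full depth of each cell, 68.0%, 4.78% and 0.475% of main macrophages had an H2-M2 UMI in PPARg-/- tumour, WT tumour and WT healthy, at median depths of 16486, 14894 and 12733 UMIs. After thinning every cell to 1000 UMIs the shares were 24.5% (22.1 to 27.1), 0.744% (0.300 to 1.53) and 0.119% (0.00301 to 0.660). Main macrophages held 96.1% of all H2-M2 UMIs of the PPARg-/- library. No UMI was read in B cells of any library. In T cells, monocytes, endothelial and AT2 cells at most 10 UMIs per class were read, below the free-RNA levels of 112, 9.14 and 0.494 CPM in PPARg-/- tumour, WT tumour and WT healthy except for 1 UMI in healthy classical monocytes. In PPARg-/- tumour, 22 UMIs were also read in 2 of 13 club or secretory cells and 12 UMIs in 1 of 33 AT1 cells.

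The size of the main macrophage level in PPARg-/- tumour depended on the filters and the clustering: it was 163 CPM at a minimum of 2000 UMIs per barcode, 181 CPM at a finer resolution, 204 CPM with libraries clustered alone and 228 CPM at a mitochondrial limit of 5%. The log2 ratio to WT tumour was then between 4.48 and 4.63, and over all non-cycling macrophage clusters together it was 3.48.

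Some clusters hold cells of both tumour libraries and give H2-M2 within a macrophage state. Cluster 1, the main cluster of PPARg-/- tumour, held 7085 UMIs in 788 of 1159 PPARg-/- tumour cells, 14 UMIs in 4 of 6 WT tumour cells and 4 UMIs in 2 of 9 WT healthy cells. In the PPARg-/- library 79 cells fell into cluster 4, the main cluster of WT tumour, and held 7 UMIs in 5 cells (7.04 CPM, 2.83 to 14.5), against 126 UMIs in 45 of 941 WT tumour cells of that cluster (8.71 CPM, 7.26 to 10.4). Interstitial macrophages, cluster 14, had 182 CPM (137 to 238) over 51 cells in PPARg-/- tumour and 255 CPM (229 to 283) over 175 cells in WT tumour. That PPARg-/- value is not stable, and was 114 CPM without the cell that holds most UMIs. Interstitial macrophages had 505 to 615 CPM at a minimum of 2000 UMIs, with doublets kept, at resolution 2.0 and with libraries clustered alone. These settings cluster and name the cells anew, so the class need not hold the cells of cluster 14. The log2 ratio ran from -1.09 to 1.31. In WT healthy the 36 cells of cluster 14 had 5 UMIs (17.5 CPM, 5.70 to 40.9). The WT tumour library thus held 48.5% of its H2-M2 UMIs in interstitial macrophages, and its level there was 14.5-fold that of the same cluster in WT healthy, from fewer than 50 healthy cells. H2-K1 (892 CPM in WT tumour and 1617 CPM in WT healthy) and H2-D1 (1275 and 2540.0 CPM) were lower in that cluster, where 13.1% of 7517 genes were called. In cycling alveolar macrophages the libraries lay apart, with 67 UMIs in 6 of 23 cells (183 CPM) in PPARg-/- tumour, 6 UMIs over 107 cells (3.26 CPM) in WT tumour, and 0 UMIs over 45 cells in WT healthy.

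**Figure D3:**
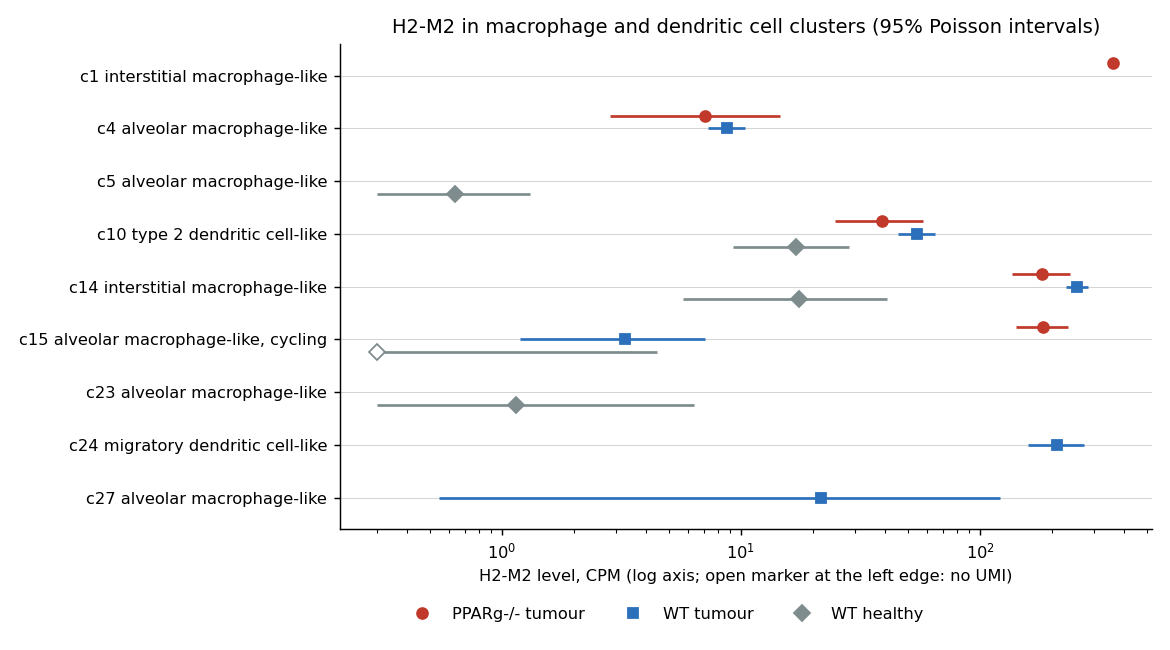
H2-M2 level in CPM (log axis) in each macrophage and dendritic cell cluster with at least 20 cells of a library, with 95% Poisson intervals; the open point marks 0 UMIs. Cluster 1 of PPARg-/- tumour stands at 360.0 CPM, cluster 4 at 7.04 CPM in PPARg-/- tumour and 8.71 CPM in WT tumour, and cluster 14 above 180 CPM in both tumour libraries and at 17.5 CPM in WT healthy.

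Dendritic cells carried H2-M2 in every library. Type 2 dendritic cells had 24 UMIs in PPARg-/- tumour, 128 in WT tumour and 14 in WT healthy (38.7, 54.2 and 16.95 CPM), and 11 of the 14 healthy UMIs came from 1 cell. Migratory dendritic cells had 53 UMIs over 11 cells of PPARg-/- tumour, 57 UMIs over 28 cells of WT tumour, and in WT healthy 67 UMIs over 13 cells, which is 67.7% of the H2-M2 UMIs of that library. Cluster 28 had 29 UMIs in 1 of 4 cells of PPARg-/- tumour and 24 UMIs in 4 of 15 cells of WT tumour. It had 5 of 8 type 1 dendritic cell markers and 7 of 12 interstitial macrophage markers raised, its leading genes include Top2a and Mki67 of the cell cycle and the macrophage genes C1qa, C1qb and C1qc, and it is left unnamed. The genes with the most similar pattern over the 30 points were C3ar1, the receptor for complement fragment C3a (r = 0.948), the complement genes C1qc (0.928) and C1qb (0.914), and Plau, which encodes urokinase (0.914).

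Compared within cluster 4, where 9.79% of 10748 genes were called, 1 of the 10 genes differed between PPARg-/- tumour and WT tumour. H2-D1 stood at 1189 CPM in PPARg-/- tumour and 1302 CPM in WT tumour (log2 ratio -0.13, -0.22 to -0.05), and Nlrc5 at 6.04 and 7.33 CPM (-0.28, -1.76 to 0.89). Tap2 was the gene called, higher in PPARg-/- tumour at 62.4 CPM, with 39.95 CPM in WT tumour (0.64, 0.24 to 1.02). The 4 genes called in main macrophages thus had the opposite sign in this cluster, where the intervals of H2-M2 (-1.65 to 0.78) and Nlrc5 span 0. Against the interstitial macrophages of WT tumour, a comparison between cluster types with 33.2% of 11527 genes called, PPARg-/- main macrophages were higher in H2-K1 (1816 against 892 CPM), H2-D1 (2266 against 1275 CPM) and B2m (4357 against 2562 CPM) and lower in Tap2 (25.6 against 41.1 CPM). Within the PPARg-/- library, cluster 1 was higher than the 79 cells of cluster 4 in H2-M2 (51.1-fold), H2-D1 (1.91-fold) and Nlrc5 (2.46-fold, from 292 and 6 UMIs) and lower in Tap2 (0.410 of the level), where 26.7% of 11369 genes were called.

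Between WT tumour and WT healthy, main macrophages were higher in 5 of the 10 genes and lower in none, where 22.8% of 11493 genes were called in either direction and 7.47% higher. B2m stood at 4263 CPM in WT tumour and 2510.0 CPM in WT healthy (log2 ratio 0.76, 0.74 to 0.78), and H2-K1 at 1490.0 and 959 CPM (0.64, 0.60 to 0.67). Tap1 stood at 33.6 and 21.04 CPM (0.67, 0.45 to 0.91) and Nlrc5 at 7.33 and 3.08 CPM (1.25, 0.68 to 1.85), with H2-M2 as above. The healthy Nlrc5 level rests on 34 UMIs, and 10% of its free-RNA level of 15.8 CPM would make up 51.3% of it. H2-D1 went the other way, at 1302 CPM in WT tumour and 1672 CPM in WT healthy (-0.36, -0.39 to -0.33), without reaching 1.5-fold. Psmb8 (0.35), Psmb9 (0.23), Tap2 (-0.10) and Tapbp (-0.20) did not reach it either. The median of the 10 genes was 0.49, against -0.16 over all genes read.

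Outside main macrophages few of the 10 genes were called between PPARg-/- tumour and WT tumour. In 9 further classes, 2 values were past the rule, both of Psmb9. Both were higher in PPARg-/- tumour, and the number higher ran from 1 to 7 over the alternative filters and clusterings, with 0 or 1 lower. Some of these settings could not read every class. In B cells, where 3.7% of genes were called higher, Psmb9 stood at 178.5 CPM (75 UMIs) in PPARg-/- tumour and 77.7 CPM (16 UMIs) in WT tumour, a log2 ratio of 1.20 (0.41 to 2.08). In AT2 cells, where 2.98% were called higher, it stood at 30.4 CPM (76 UMIs) in PPARg-/- tumour and 18.7 CPM (50 UMIs) in WT tumour, a log2 ratio of 0.70 (0.17 to 1.24). In either direction 11.2% of genes were called in B cells and 8.32% in AT2 cells. No gene of the 10 was called in interstitial macrophages, nonclassical and classical monocytes, type 2 dendritic cells, CD4 and CD8 T cells and endothelial cells, where 7.94%, 9.11%, 7.34%, 6.41%, 7.07%, 4.44% and 7.99% of all genes were called, in that order. H2-D1, higher in PPARg-/- main macrophages, had log2 ratios from -0.07 in B cells to 0.26 in endothelial cells in these 9 classes.

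**Figure D4:**
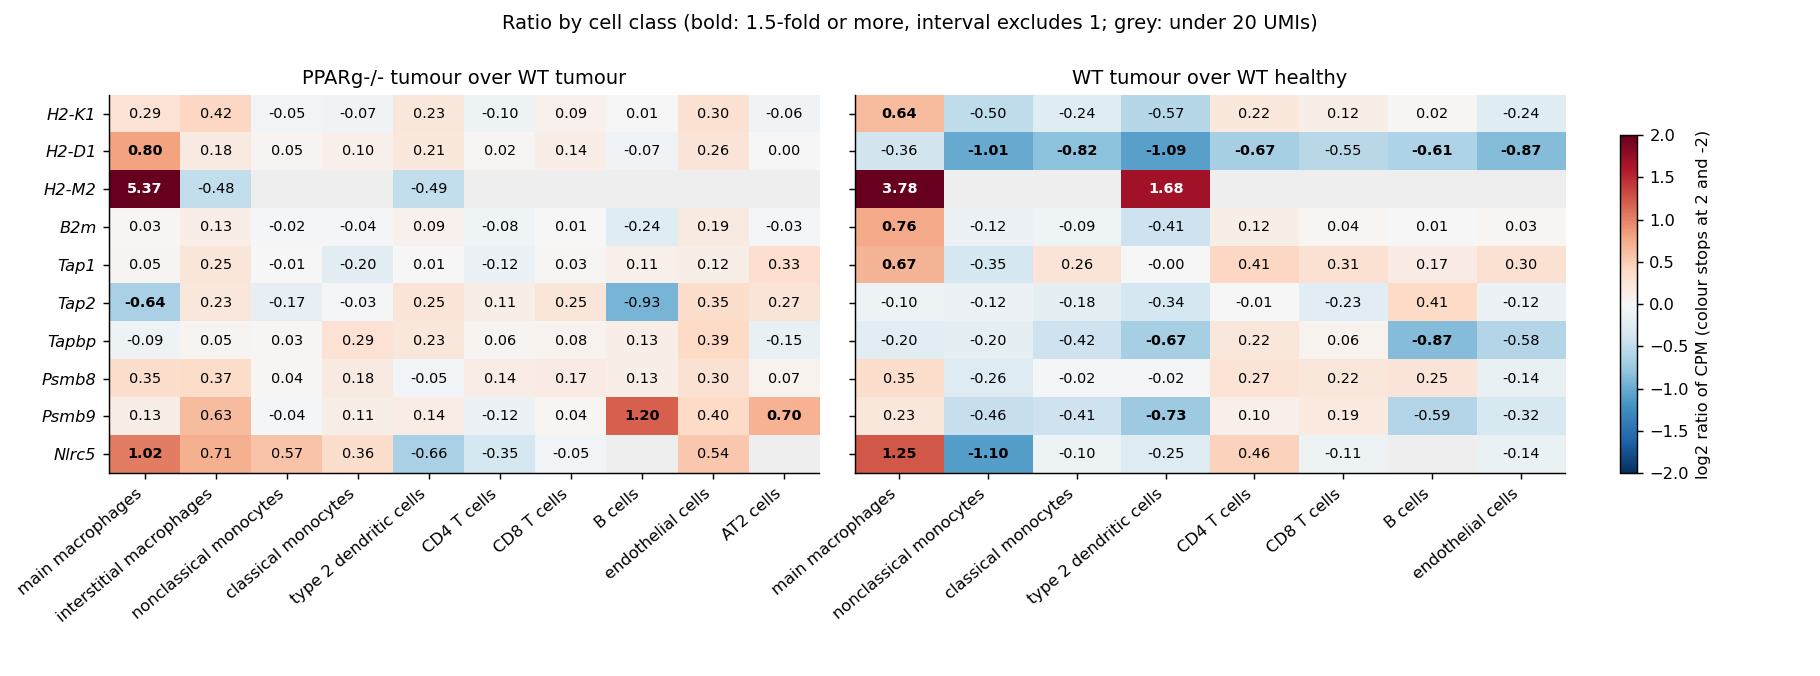
Log2 ratio of CPM for the 10 genes by cell class, PPARg-/- tumour over WT tumour on the left and WT tumour over WT healthy on the right; bold values were called, and grey fields had under 20 UMIs. The H2-D1 row is below 0 in all 8 classes on the right.

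Between WT tumour and WT healthy, the row of H2-D1 stood out. Its level was lower in WT tumour in all 8 classes compared, and past 1.5-fold in 6 of them. Over the alternative filters and clusterings 4 to 8 classes were past it, and some of these settings could not read every class. H2-D1 stood at 2475 CPM in WT tumour and 4983 CPM in WT healthy nonclassical monocytes (log2 ratio -1.01, -1.07 to -0.95) and at 955 and 2030.0 CPM in type 2 dendritic cells (-1.09). Classical monocytes had 1961 and 3473 CPM (-0.82), endothelial cells 1950.0 and 3561 CPM (-0.87), CD4 T cells 1191 and 1891 CPM (-0.67) and B cells 1215 and 1857 CPM (-0.61), WT tumour before WT healthy in each. CD8 T cells (-0.55, -0.63 to -0.47) and main macrophages stayed short of 1.5-fold. The share of all genes called lower was 5.4% in nonclassical monocytes, 8.23% in type 2 dendritic cells, 5.86% in classical monocytes, 6.54% in endothelial cells, 4.46% in CD4 T cells and 7.29% in B cells.

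H2-K1 showed no such row, with log2 ratios from -0.57 in type 2 dendritic cells to 0.64 in main macrophages and 4 of 8 classes above 0. The ratio of H2-K1 to H2-D1 UMIs, which does not depend on library scaling, was accordingly lowest in WT healthy in each class read in all 3 libraries. CD4 T cells had 1.41 H2-K1 UMIs per H2-D1 UMI in PPARg-/- tumour, 1.53 in WT tumour and 0.829 in WT healthy. Nonclassical monocytes had 0.776, 0.834 and 0.586, and endothelial cells 1.06, 1.03 and 0.668, in the same order. Over all classes the ratio ran from 0.677 to 1.56 in PPARg-/- tumour, 0.700 to 1.63 in WT tumour and 0.508 to 0.896 in WT healthy. Only in main macrophages did the intervals of the tumour libraries lie apart, with 0.802 (0.790 to 0.813) in PPARg-/- tumour, 1.14 (1.12 to 1.17) in WT tumour and 0.574 (0.560 to 0.588) in WT healthy. In both tumour libraries AT2 cells had the highest ratio, 1.56 in PPARg-/- tumour and 1.63 in WT tumour. The strain background, and with it the H2 haplotype of each group, is not given in the sources used here, and its part in these ratios was not tested.

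**Figure D5:**
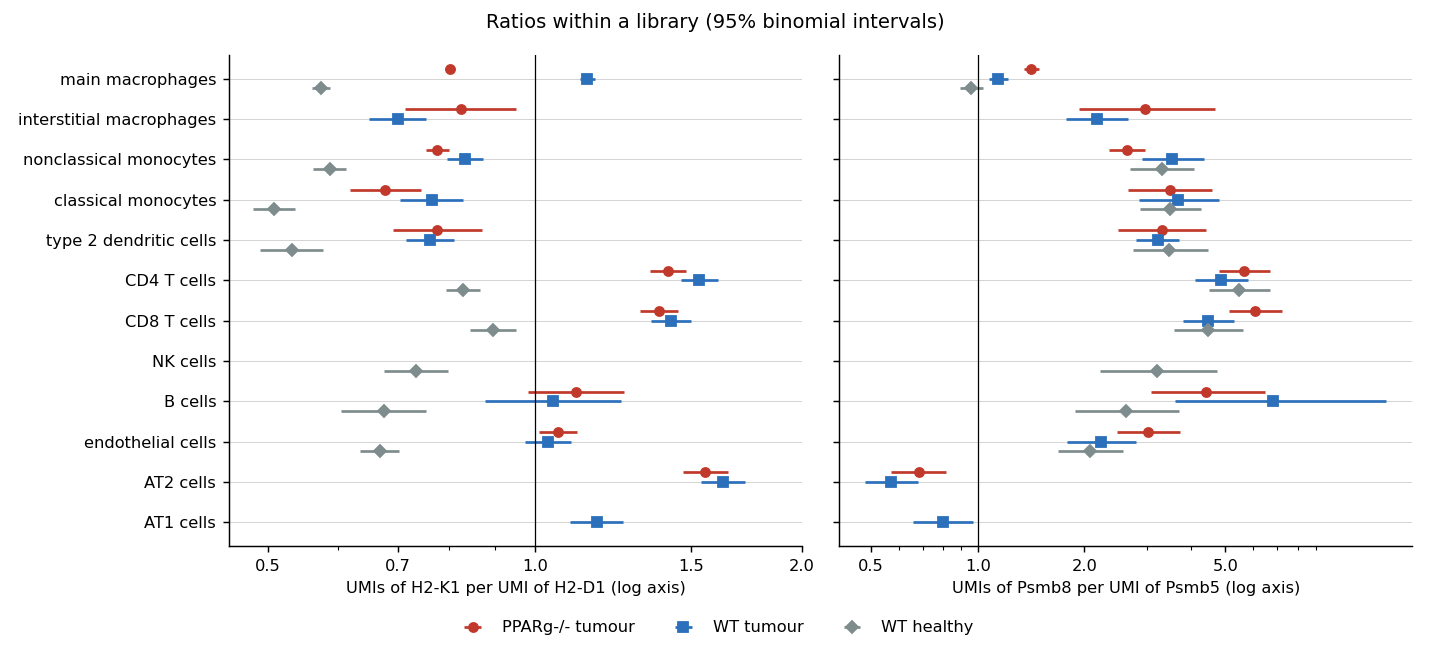
Left, UMIs of H2-K1 per UMI of H2-D1; right, UMIs of the immunoproteasome gene Psmb8 per UMI of the standard subunit gene Psmb5 (log axes, 95% binomial intervals) by class and library. On the left the WT healthy points are the lowest of each class, and on the right AT2 cells, AT1 cells (read in WT tumour) and main macrophages lie lowest.

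The sum of H2-K1 and H2-D1, which would not change if UMIs were passed between them, was lower in WT tumour than in WT healthy in 7 of 8 classes. Its log2 ratio was -0.89 in type 2 dendritic cells, -0.80 in nonclassical monocytes, -0.60 in classical monocytes and -0.58 in endothelial cells, and -0.20 in both CD4 and CD8 T cells. Main macrophages were the exception at 0.09, with 2792 CPM in WT tumour and 2631 CPM in WT healthy. For PPARg-/- tumour over WT tumour the main macrophages had the highest value, 0.55 (4083 against 2792 CPM), and nonclassical monocytes one of 0.0039 (4550.0 against 4537 CPM).

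Type 2 dendritic cells differed most after the main macrophages in WT tumour over WT healthy, with 1 of 10 genes higher and 3 lower, where 6.75% of all genes were called higher, 8.23% lower and 15% in either direction. H2-M2 was higher (54.2 against 16.95 CPM), and besides H2-D1, Psmb9 (94.9 against 157 CPM, log2 ratio -0.73) and Tapbp (139 against 222 CPM, -0.67) were lower. Nonclassical monocytes had 2 genes lower, H2-D1 and Nlrc5 (16.4 CPM in WT tumour and 35.0 CPM in WT healthy, -1.10), where 10.4% of genes were called. Clusters 2 and 8 of this class held 250 and 243 cells in WT tumour but 23 and 216 in WT healthy. B cells had 2 lower, H2-D1 and Tapbp (107 against 196 CPM, -0.87), where 15.7% were called. Of 9 peptide loading and trimming genes read in B cells, 1 was higher and 4 were lower. The furthest below were Hspa5 (257.5 against 1339 CPM) and Pdia6 (102.0 against 413 CPM). A difference in plasma cells between these libraries was not tested. In classical monocytes, CD4 T cells and endothelial cells H2-D1 alone was called, where 9.69%, 13.6% and 12.2% of genes were called. In CD8 T cells none was, where 9.5% were called.

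Ratios of immunoproteasome to standard subunits set the cell types apart within each library. Psmb8 replaces the subunit encoded by Psmb5, and CD8 T cells had 6.07 Psmb8 UMIs per Psmb5 UMI in PPARg-/- tumour, 4.46 in WT tumour and 4.46 in WT healthy. That was the highest ratio in PPARg-/- tumour only. B cells were highest in WT tumour (6.82, from 75 and 11 UMIs) and CD4 T cells in WT healthy (5.455). AT2 cells had 0.682 (0.570 to 0.813) in PPARg-/- tumour and 0.571 (0.481 to 0.677) in WT tumour. Main macrophages lay near the low end, at 1.42 (1.35 to 1.49), 1.14 (1.08 to 1.21) and 0.960 (0.892 to 1.03) in PPARg-/- tumour, WT tumour and WT healthy. Psmb9, which replaces the subunit of Psmb6, was at 0.380, 0.384 and 0.392 per Psmb6 UMI in main macrophages of these libraries, with intervals that overlap. In AT2 cells this ratio was 0.243 (0.186 to 0.313) in PPARg-/- tumour and 0.135 (0.0982 to 0.181) in WT tumour. Psmb10 per UMI of Psmb7, the last such pair, was 1.72 (1.60 to 1.85) in PPARg-/- tumour, 1.13 (1.04 to 1.22) in WT tumour and 1.14 (1.04 to 1.24) in WT healthy main macrophages. The Psmb10 to Psmb7 ratio was higher in PPARg-/- than in WT tumour in every class read in both libraries. Besides main macrophages, the intervals lay apart in nonclassical monocytes, whose makeup also differs between these libraries, 1.71 (1.48 to 1.99) against 1.12 (0.881 to 1.42). They also lay apart with CD4 and CD8 T cells pooled, 2.58 (2.18 to 3.06) against 1.72 (1.45 to 2.03). In each of the other classes they overlapped, with 3.20 against 1.94 in endothelial cells and 0.408 against 0.368 in AT2 cells. Free RNA held Psmb8 at 292.5 and 242.3 CPM and Psmb9 at 105.9 and 78.1 CPM in PPARg-/- and WT tumour. The AT2 levels were lower, at 85.5 and 81.2 CPM for Psmb8 and 30.4 and 18.7 CPM for Psmb9. With 10% free RNA subtracted, 16 of 120 ratios of gene pairs, H2-K1 to H2-D1 included, moved outside their intervals.

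The rest of the pathway was read in 67 further genes. In main macrophages of PPARg-/- tumour over WT tumour, 59 were read. Of these 7 were called higher and 13 lower, and their median was -0.19 on the log2 scale against -0.14 over all genes. Over all genes 15.1% were called higher and 18.2% lower, so these counts together are near the background. Of 8 other class I heavy chains read, 4 were higher and 1 lower, and of 10 peptide loading and trimming genes none was higher and 3 were lower. Of 6 genes for the proteasome activator and the last immunosubunit, 2 were lower, and of 16 transcription factors and cofactors 5 were lower. Of 7 genes for interferon receptors and ligand 2 were higher and none lower, and of 4 class I-like molecules 1 was higher and 2 were lower. None of the 8 standard proteasome subunits was called. Hfe, a class I-like regulator of iron uptake, was read at 46.7 CPM in PPARg-/- tumour and 16.8 CPM in WT tumour (1.47), and H2-Q6, a nonclassical heavy chain, at 20.0 and 7.67 CPM (1.38). Fcgrt, the heavy chain of the neonatal Fc receptor, which also pairs with B2m, was read at 25.2 CPM in PPARg-/- tumour and 146 CPM in WT tumour (-2.54). In nonclassical monocytes it was read at 8.48 and 73.6 CPM (-3.12), and there Psme2, a subunit of the proteasome activator, stood at 228 and 138 CPM (0.72) and Hfe at 446 and 292 CPM (0.61). H2-T24 was lower in PPARg-/- main macrophages (3.51 against 8.78 CPM, -1.32).

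In main macrophages of WT tumour over WT healthy, 5 of the 59 were called higher and 5 lower; their median was -0.13 against -0.16 over all genes, of which 7.47% were called higher and 22.8% in either direction. H2-T24 (8.78 against 1.81 CPM) and H2-Q7 (47.0 against 16.6 CPM) were the furthest above, and H2-Q10 (8 against 16 UMIs) and Ubxn7 (11.8 against 23.4 CPM) the furthest below. H2-Q6 was higher in WT tumour in CD4 T cells (109 against 33.3 CPM, log2 ratio 1.70) and CD8 T cells (160 against 64.9 CPM, 1.30), where H2-D1 had log2 ratios of -0.67 and -0.55. H2-Q6 and H2-Q7 are near-identical copies, and the split of UMIs between them is uncertain. Ifngr1, a chain of the interferon gamma receptor, was read in endothelial cells at 287 CPM in PPARg-/- tumour, 508 CPM in WT tumour and 209 CPM in WT healthy. Ifng itself, a strong inducer of class I genes, was read in CD8 T cells at 45.3 CPM (88 UMIs) in PPARg-/- tumour, 24.9 CPM (47 UMIs) in WT tumour and 59.9 CPM (72 UMIs) in WT healthy.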

How the data were processed

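The authors deposited raw UMI counts per gene and barcode for each library. Cell Ranger 6.0.1, Seurat 4.0.1 and mm10 come from the submitters' processing notes, although Cell Ranger 4 stands in the matrix headers. Use of strand in counting is not given in the sources used here. Total UMIs were 44548318, 46148658 and 30454790 in PPARg-/- tumour, WT tumour and WT healthy. Barcodes with at least 1000 UMIs, 500 genes and at most 10% mitochondrial UMIs were kept (5137, 4374 and 2947, median 3527, 4920 and 5667 UMIs). Scrublet (scanpy 1.11.5), at an expected rate of 6%, removed 142, 106 and 53 of them. Leiden clusters (resolution 1.0) came from 2000 variable genes, 30 principal components and 15 neighbours, without integration. A name needed at least 3 markers at 4-fold over the median cluster in at least 10% of cells. The class I pathway genes took no part in clustering.

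UMIs were summed by class and library and scaled to 1000000 (CPM), with exact 95% Poisson intervals. Ratios have exact conditional binomial (Clopper-Pearson) intervals, as do shares of cells. The method was run on simulated Poisson counts, the model that the intervals assume. Such counts leave out the clumping of UMIs in single cells, so the run does not check the intervals for it. No test between groups was possible. Alternatives were another mitochondrial limit, UMI minimum, resolution and count minimum, doublets kept, libraries clustered alone, free RNA subtracted, centred ratios, the top cell left out and all macrophage clusters. Free RNA was read from barcodes of 10 to 100 UMIs. Likeness between genes used log2(CPM + 10) over genes that reached 50 CPM. Named are the 10 genes, the 2 pathway genes furthest above and below per class and comparison (a selection is printed), and the 4 genes most like each of H2-K1, H2-M2, Tap1, Psmb8 and Nlrc5 (1 of these is not reported here). The genes, lists and rules were chosen with earlier results of these data known. Cells of a library are not replicates. Comparisons of macrophages within the same cluster, and the choice of clusters 22 and 24, were made after the values were seen.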

Additional observations from a re-analysis of the deposited data

How the results depend on the processing

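No paired analysis was possible because each group has 1 library, so that no replicate could be left out either. Of 22 values past the size rule for single genes, 18 kept their sign under every alternative that could read them. The other 4 reversed when cells of cluster 4 alone were compared between PPARg-/- tumour and WT tumour, an alternative added after the data were seen: H2-D1 -0.13, H2-M2 -0.31, Tap2 0.64 and Nlrc5 -0.28 (log2). There 1 gene was higher and 0 lower, with a median of 0.089. The intervals of H2-M2 and Nlrc5 span 0 in that comparison. It uses other PPARg-/- cells than the main macrophages by construction, and no cause of the reversals was tested.

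Over the alternatives other than that one, genes higher in main macrophages stayed at 3 for PPARg-/- tumour over WT tumour and at 4 or 5 for WT tumour over WT healthy. Genes lower in PPARg-/- main macrophages were 0 at a mitochondrial limit of 5%, with centred ratios and over all macrophage clusters. With centred ratios the medians were 0.34 for PPARg-/- over WT tumour and 0.65 for WT tumour over WT healthy. With each library clustered alone the second median was 0.34 and 1 gene was lower. Over the other classes, genes higher in PPARg-/- than in WT tumour numbered 1 at the mitochondrial limit of 5%, 5 at a minimum of 2000 UMIs and at resolution 2.0, and 7 with doublets kept and with libraries clustered alone, against 2 as reported. Genes lower there numbered 1 with doublets kept, with free RNA subtracted and with the highest cell left out. For WT tumour over WT healthy, 0 were higher in other classes at resolution 2.0. The causes were not tested. H2-D1 was lower in 4 to 8 classes over the alternatives. Some alternatives could not read every class, so these counts do not all cover the same classes. H2-M2 in main macrophages kept a log2 ratio of 3.48 to 5.57 for PPARg-/- over WT tumour under the alternatives other than the comparison of cluster 4 in both libraries.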
